A study of Mus musculus with 23 samples.

Results

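Of 32793 genes in the deposited tables of a C2C12 differentiation series, 82 peaked on the first day of differentiation in control cells. A gene was counted when its mean TPM (transcript abundance normalised for gene length and depth) in the control day 1 libraries was at least 5 and at least 1.5 times its mean on each of control days 0, 3 and 6. Of the genes, 9752 reached 5 TPM on control day 1, so 0.841% of these met the ratio. The members were thus chosen by their mean TPM in the control libraries. Control values are therefore given as a description with no test, and so is any comparison against control. Only contrasts among the libraries labelled Runx1KO, which the rule did not use, were tested.

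C2C12 cells are mouse myoblasts, which divide while serum is plentiful and leave the cell cycle and fuse into myotubes once it is lowered. Poly(A) RNA was sequenced from control C2C12 and from C2C12 labelled Runx1KO, a knockout of the transcription factor Runx1. Cells were taken while growing in 20% fetal bovine serum (day 0) and after 1, 3 and 6 days in 2% horse serum. The sample titles give day 6, while the series text gives the last time as day 5, and the titles were followed. The 8 groups held 3 libraries each, except control day 0, of which 2 were analysed here. Neither the clonal origin of the knockout cells nor separate cultures for the replicates are given in the labels, so p-values measure only the spread between these libraries.

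The first day after serum withdrawal is the interval in which myoblasts leave the cell cycle and begin to switch on muscle genes, before most have fused. Runx1 is a DNA-binding factor of the Runt family with roles in blood formation and in injured or denervated muscle. Receptors, adhesion proteins and the matrix around the cell are remodelled in the same interval, ahead of fusion.

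Each library held between 22197606 and 23684077 estimated counts. Runx1 mRNA was not lower in the libraries labelled Runx1KO. Its mean TPM in control was 20.6 on day 0, 28.0 on day 1, 41.6 on day 3 and 42.6 on day 6, against 29.0, 35.2, 57.1 and 83.9 in the labelled knockout, with no overlap between the groups on any day. The RNA level therefore does not bear out the label, but it does not measure Runx1 protein, and the kind of knockout allele is not given. Whether the protein was lost was not tested, and the directions below refer to labels. Replicate 2 of labelled Runx1KO day 1 stood apart from its replicates, with a deviation that fell with transcript GC content (r = -0.68 across genes, which are not independent replicates). The tested members lay at a median log2 deviation of -0.19 in that library, against 0.05 for all tested genes, and it was the lowest of the 3 libraries for 44 tested members (57.1%, against 35.1% of all tested genes) and the highest for 20. Summed TPM of 6 myoblast markers was 1185 to 2983 in every library, while that of 6 myotube markers was 2.67 to 5.02 in growth medium, 80.2 to 131.8 on control day 1 and 190.7 to 228 on labelled Runx1KO day 1. It was 2316 to 2459 and 1853 to 2256 on control days 3 and 6, and 3565 to 6477 and between 10700 and 12290 in the labelled knockout.

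The peak was modest for most members. The ratio of control day 1 to the highest other control day had a median of 1.74, and 24 of the 82 reached 2 and 9 reached 3. Just inside the limit were Tns2 (1.5002), Dtx4 (1.5006) and Sema5a (1.51), and just outside were Car2 (1.49), Rgcc (1.49) and Ropn1l (1.48). Mean levels on control day 1 ran from 5.13 to 1516 TPM with a median of 25.5, and 15 members were above 100 TPM. All 3 control day 1 libraries lay above every other control library for 71 members, including all 67 with an ordinary gene symbol, against 7.51% of the 9752 genes, a count that the choice of members largely fixes. With TMM-scaled CPM (depth-normalised counts without a length term) in place of TPM, 60 of the 82 members were chosen again, among 79. The 22 left out were 11 gene-model, clone or small RNA names and 11 ordinary symbols: Ank, Cited1, Dact2, Fbxo2, Gxylt2, Lgals2, Mgst3, Milr1, Plac1, Sema3a and Snn. A rise of a transcript in these bulk libraries cannot be told apart from a change in the share of cells that carry it.

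After the fall from day 1 that the choice of members fixes, control levels stood on either side of the growth-medium level. Control day 3 libraries lay above both day 0 libraries for 44 of the 82 members (53.7%), against 47.8% of the 9752 genes. Day 6 libraries lay above day 0 for 35 members (42.7%, against 42.8%) and below it for 15 (18.3%, against 31.3%). The rule used all of these control days and leaves out genes that were high on day 0, so nothing is read from these shares.

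In the libraries labelled Runx1KO, most members rose from growth medium to day 1, and somewhat fewer fell after it. Of the 82 members, 77 passed the filter on low counts and were tested, and the other 5 were the small nucleolar RNA Snora17 and 4 cDNA clone models. With edgeR's quasi-likelihood F test, and p-values adjusted by Benjamini-Hochberg over all 14187 tested genes, 62 members were higher on day 1 than on day 0, 1 was lower and 14 were not called. Of all tested genes, 27.2% were called higher and 25.2% lower. Against day 3, 43 members were higher and 34 were not called (11.2% of all genes higher and 15.5% lower). Against day 6, 50 were higher, 3 were lower and 24 were not called (28.1% of all genes higher and 26.9% lower). The median log2 fold change of the tested members was 1.00 against day 0, 0.40 against day 3 and 0.65 against day 6, beside 0.04, -0.03 and 0.01 for all tested genes.

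All 3 contrasts called 32 of the tested members (41.6%) higher on day 1, where 2.98% of all tested genes met the same condition; the contrasts share the 3 day 1 libraries. Without replicate 2 of day 1, 38 met it, and without replicate 3, 23 did. The share of all tested genes was not computed for either setting. The only member lower than on day 0 was the clone AK191411 (-3.40 ± 1.09), and the 3 lower than on day 6 were Ace, Stc1 and Ifitm3. For AK191411, limma gave -4.07 on log2(TPM + 1) and -5.26 on log2(TPM + 0.1) and called neither (adjusted p = 0.0521 and 0.102). All labelled Runx1KO day 1 libraries lay above every other labelled Runx1KO library for 32 members (39.0%, against 6.71% of genes with at least 5 TPM there), or for 43 without replicate 2. The share of genes was not computed without that replicate, and leaving out a library can only keep or raise such a count.

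**Figure D1:**
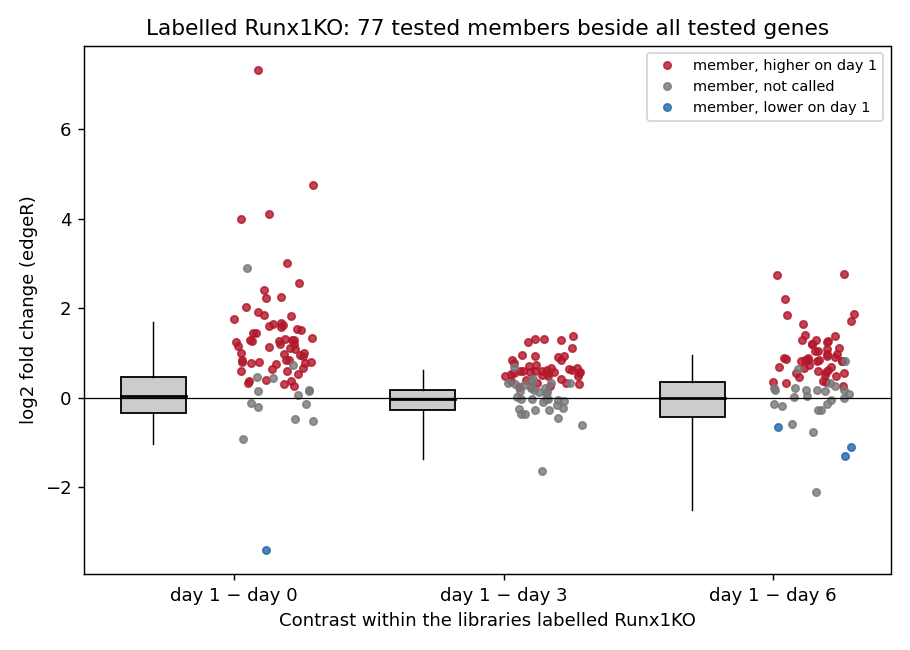
Log2 fold changes within the libraries labelled Runx1KO (vertical axis) for day 1 minus day 0, day 3 and day 6, each from 3 against 3 libraries. Grey boxes show the quartiles of 14187 tested genes with lines to the 5th and 95th percentiles, and points are the 77 tested members, spread sideways only for visibility and coloured by call: 62, 43 and 50 were higher on day 1.

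The members that kept the peak in the labelled knockout were mixed in function. The same rule applied to the labelled Runx1KO means was met by 18 of the 82 members (22%), which are 16.7% of the 108 genes that met it there, and by 1.12% of the 9674 genes with at least 5 TPM on that day. They were Ifitm1, Lgals2, Jup, Col18a1, Apobr, Opn3, Slc30a4, Plekhg1, Mtmr11, Dnaaf3, Xrcc5, Cables1, Idh1, Fah, Gxylt2, Mgst3, Sema5a and Dtx4. Day 1 was the highest of the labelled Runx1KO means for 57 members (69.5%), against 31.0% of those 9674 genes. The median ratio of day 1 to the highest other day was 1.21 in the labelled knockout, and 1.26 without its replicate 2.

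**Figure D2:**
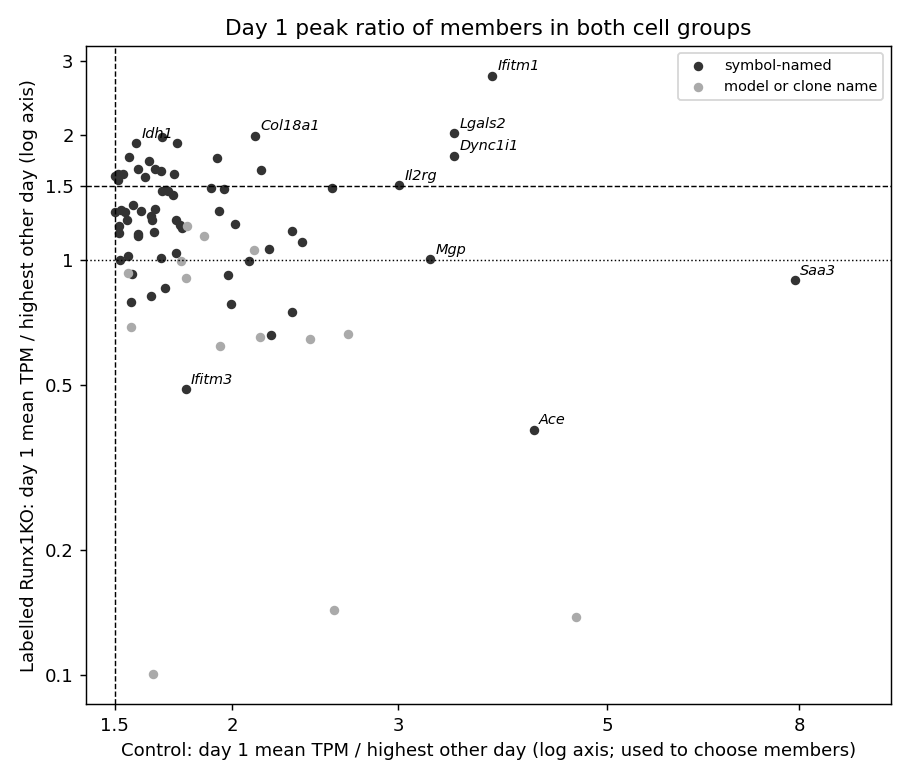
Ratio of day 1 mean TPM to the highest other day in control (horizontal, log axis, the value that chose the members) and in libraries labelled Runx1KO (vertical, log axis), 1 point per member. Dashed lines mark 1.5 and the dotted line marks 1. Snora17, at 0 in every library labelled Runx1KO, is not drawn, and 18 members with at least 5 TPM on labelled Runx1KO day 1 are on or above the upper dashed line.

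Fewer members had their highest labelled Runx1KO mean on another day. Day 6 was highest for 10 members (12.2%, against 28.3% of those 9674 genes), among them Ace, Itgb4, Stc1, Ifitm3, Ch25h, Mvb12b and Oplah. Day 3 was highest for 9 (11%, near the 10.01% of the genes), among them Saa3, Pi16 and Pitx3, and day 0 for 5 (6.10%, against 30.6%), among them Fbxo2, Cited1 and St8sia2. Apart from the genes taken by rule for the size of their ratio, their level or their labelled Runx1KO contrasts, genes in this account were chosen after their values were seen.

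**Figure D3:**
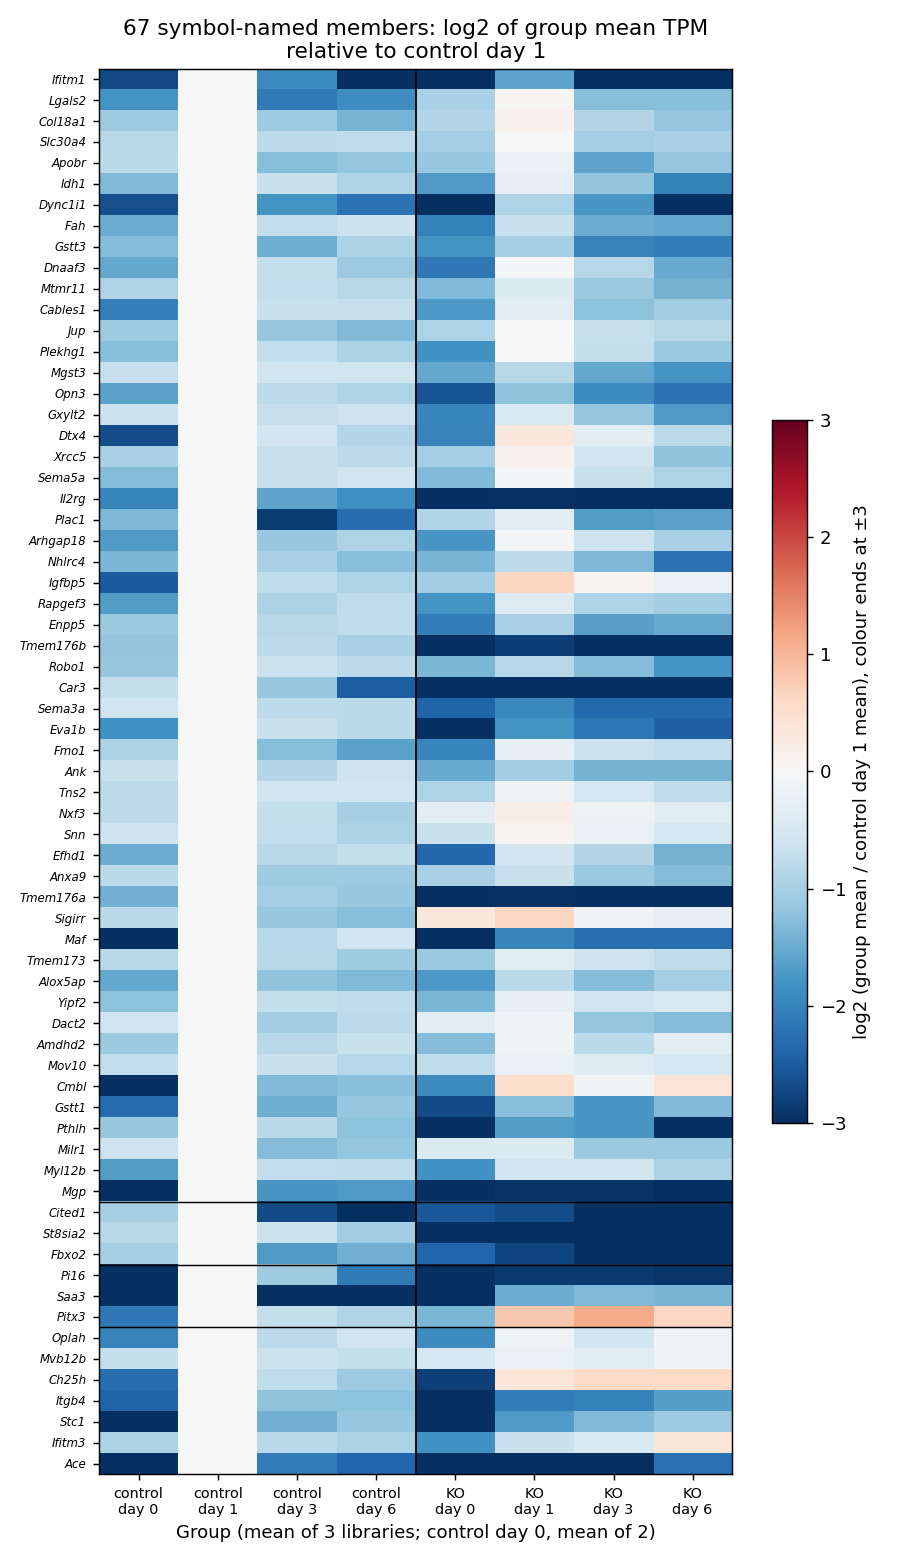
Log2 of the group mean TPM relative to control day 1 for the 67 members with an ordinary symbol (rows) in the 8 groups (columns). Horizontal lines separate members whose highest labelled Runx1KO mean was on day 1 (54 genes), day 0 (3), day 3 (3) and day 6 (7), and colours end at ±3.

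Interferon-induced transmembrane proteins, which sit in cell membranes and restrict virus entry, gave both the clearest shared peak and one of the clearest losses of it. Ifitm1 read 34 and 26.5 TPM in the control day 0 libraries, 199.8, 194 and 198 on day 1, 55, 52.6 and 49.2 on day 3 and 23, 23.4 and 25.4 on day 6. Its labelled Runx1KO libraries read 11.9, 9.79 and 8.03 on day 0, 71.4, 53.8 and 71.2 on day 1, 22.1, 24.2 and 24.7 on day 3 and 22.9, 17 and 12.2 on day 6. Day 1 libraries were thus above all others in both cell groups, and every labelled Runx1KO library was below every control library of its day. The log2 fold changes of Ifitm1 in the labelled knockout were 2.56 ± 0.17 (SE, adjusted p = 2.29e-11) against day 0, 1.39 against day 3 and 1.88 against day 6. It was the only member called higher with a log2 fold change of at least 1 in all 3 contrasts.

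Ifitm3, a close relative of Ifitm1 and the most abundant member, read 802 and 769 TPM on control day 0 and 1510.2, 1536 and 1501 on control day 1, and its control means on days 3 and 6 were 849 and 779. The labelled knockout libraries read 466, 436 and 384 on day 0, 969, 863 and 1048 on day 1, 1146, 998 and 1146 on day 3 and 1787, 2081 and 2027 on day 6. The day 1 libraries thus stood above day 0 and below day 6 there, and overlapped those of day 3. Day 1 was above day 0 by 1.00 ± 0.11 and below day 6 by 1.09 ± 0.11 on the log2 scale (adjusted p = 6.84e-08 and 1.27e-08). Its difference from day 3 of -0.28 ± 0.11 was not called (adjusted p = 0.0594). It was called, at -0.26 to -0.35, with library-size scaling, with no filter, and without any single library of labelled Runx1KO day 1 replicates 1 and 3, day 3 replicate 2 and control day 6 replicate 2. Among 125 tested interferon response genes, 51 were higher and 4 lower on labelled Runx1KO day 1 than on day 0. On that day 98 were lower than on day 3 and 111 lower than on day 6, with 2 and 3 higher. Ifitm1 and Ifitm3 were the list's only members of the day 1 set. Of all tested genes, 25.2%, 15.5% and 26.9% were called lower on day 1 than on days 0, 3 and 6, and 27.2%, 11.2% and 28.1% higher, which are the shares for this and the later list counts.

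Il2rg and Saa3 were the 2 members on the list of cytokines, chemokines and NF-kappaB genes. Of its 130 tested genes, 41 were higher and 23 lower on labelled Runx1KO day 1 than on day 0, 15 higher and 30 lower than on day 3, and 26 higher and 58 lower than on day 6. Il2rg encodes the receptor chain shared by several interleukin receptors, and it read 8.78 and 8.11 TPM on control day 0, 32.4, 31.4 and 34.4 on day 1, 10.3, 11.4 and 11 on day 3 and 8.81, 9.7 and 8.8 on day 6. Labelled Runx1KO libraries read 2.21, 3.37 and 2.72 on day 0, 4.86, 3.29 and 4.37 on day 1, 2.26, 1.82 and 1.45 on day 3 and 0.57, 0.73 and 0.54 on day 6. All labelled Runx1KO libraries lay below all control libraries of their day, and Il2rg fell after day 1 there (day 1 minus day 6 2.74 ± 0.24, adjusted p = 1.59e-09). Its change from day 0 of 0.44 ± 0.19 was not called (adjusted p = 0.054). Without labelled Runx1KO day 1 replicate 2 that change was 0.62 and was called. It was also called, at 0.44 to 0.60, without any single library of labelled Runx1KO day 0 replicate 2, day 3 replicates 1 and 3 and day 6 replicate 1, control day 3 replicate 2 and control day 6 replicates 1 and 3. Library-size scaling, a mean count of 50, DESeq2 and both limma fits called it as well, at 0.43 to 0.58. The summed TPM of 6 macrophage markers was 2.26 to 2.48 on control day 1 and 1.28 to 2.18 on labelled Runx1KO day 1, with Ptprc, Adgre1 and Tyrobp at 0 in both groups.

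Saa3, an acute phase protein, had the highest control ratio among the members with ordinary symbols. It read 1.7 and 1.3 TPM on control day 0, 38.3, 33.2 and 25.1 on day 1, 9.29, 2.24 and 0.68 on day 3 and 2.68, 4.16 and 1.73 on day 6. The labelled knockout read 0.41, 0.2 and 1.22 on day 0, 8.69, 12.5 and 13.5 on day 1, 14.2, 7.66 and 17.1 on day 3 and 18.3, 8.93 and 9.51 on day 6. Saa3 rose to a lower level there, and no later fall was called. Day 1 exceeded day 0 by 3.99 ± 0.66 (adjusted p = 2.29e-05). The difference was -0.26 ± 0.42 from day 3 and -0.14 ± 0.42 from day 6 (adjusted p = 0.696 and 0.799). The sign against day 3 turned without day 3 replicate 3 (0.02), and that against day 6 without day 6 replicate 1 (0.25).

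Alox5ap and Sigirr, the latter chosen after its values were seen, had smaller control ratios than Saa3. Alox5ap, which presents arachidonic acid to the enzyme that makes leukotrienes, had means of 19.8, 57, 24.6 and 22.6 TPM on control days 0, 1, 3 and 6. The means were 17.3, 32.7, 23.1 and 28 in the labelled knockout. Its call above day 3 there (0.43, adjusted p = 0.0332) was lost without day 1 replicate 3 (0.28) or day 3 replicate 1 or 2 (0.38 each), and in the Runx1KO groups alone (0.43). Sigirr, a receptor that damps interleukin-1 and Toll-like receptor signals, was among the 3 members higher in the labelled knockout on every day: its means were 13.4, 23.5, 10.7 and 9.66 TPM in control. The means were 29.6, 35.9, 21.7 and 19.8 in the labelled knockout. There it fell after day 1 (0.68 ± 0.13 against day 3 and 0.82 ± 0.13 against day 6), while its difference from day 0 was 0.15 ± 0.13 (adjusted p = 0.348), or 0.29 and called without day 1 replicate 2.

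The paired membrane proteins Tmem176a and Tmem176b, encoded head to head on chromosome 6, moved alike and stood far lower in the labelled knockout. Tmem176b read 34.3 and 34.2 TPM on control day 0, 79.9, 79.2 and 72.7 on day 1, 47.8, 48.8 and 37.4 on day 3 and 32.9, 45.5 and 40.0 on day 6. It read 5.06, 4.1 and 3.95 on day 0, 12.6, 8.58 and 11.7 on day 1, 8.44, 6.85 and 7.58 on day 3 and 9.7, 6.82 and 6.51 on day 6 in the labelled knockout. Tmem176a means were 14, 38, 18.9 and 17.3 TPM in control. The means were 1.39, 4.89, 3.06 and 4.0 in the labelled knockout. For both genes every labelled Runx1KO library was below every control library of its day. Both rose from day 0 to day 1 in the labelled knockout, Tmem176b by 1.29 ± 0.19 and Tmem176a by 1.77 ± 0.21 (adjusted p = 5.39e-06 and 2.19e-07). Their exons overlap in the annotation, and since no use of strand is stated in the sources used here, reads of the pair cannot be told apart where they overlap.

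Secreted and matrix proteins were among the most abundant members. Mgp, a matrix protein that inhibits calcification, read 42.4 and 33.9 TPM on control day 0, 437, 390.1 and 454 on day 1, 155, 133 and 95.5 on day 3 and 109, 151 and 135 on day 6. The labelled knockout read 3.08, 2.7 and 2.69 on day 0, 44.8, 61.9 and 60.8 on day 1, 60.2, 51.6 and 55.4 on day 3 and 73.9, 41.1 and 45.7 on day 6. Mgp was lower in every labelled Runx1KO library than in any control library of the day, rose there by 4.11 ± 0.28 from day 0 (adjusted p = 3.25e-11) and no later change was called. Its day 1 value differed from day 3 by -0.10 ± 0.18 and from day 6 by 0.00 ± 0.18 (adjusted p = 0.735 and 0.987), the sign of the last turning under several settings.

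Col18a1, a basement membrane collagen whose end fragment is endostatin, had nearly the same course in both cell groups. It read 149 and 127 TPM on control day 0, 307, 283 and 284 on day 1, 139, 139 and 131 on day 3 and 96, 105 and 131 on day 6. Libraries labelled Runx1KO read 167, 156 and 152 on day 0, 316, 281 and 353 on day 1, 158, 163 and 157 on day 3 and 145, 123 and 125 on day 6. In the latter, day 1 was higher by 0.85 ± 0.09 than day 0, by 0.92 ± 0.09 than day 3 and by 1.24 ± 0.09 than day 6 (adjusted p = 1.82e-08, 1.46e-08 and 2.67e-11). Of 124 tested collagens and matrix structural genes, 60 were higher on labelled Runx1KO day 1 than on day 0 and 20 lower. On that day 56 were lower than on day 3 and 12 higher, and 77 were lower than on day 6 and 16 higher. Col18a1 was among the higher ones in each comparison.

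Igfbp5, a secreted binding protein of insulin-like growth factors that rises as myoblasts differentiate, was higher in the labelled knockout throughout. It read 137 and 98.8 TPM on control day 0, 753, 613 and 643 on day 1, 395, 418 and 367 on day 3 and 289, 284 and 481 on day 6. Its labelled Runx1KO libraries read 375, 319 and 288 on day 0, 999.8, 1022 and 1109 on day 1, 708, 720.4 and 700.3 on day 3 and 677, 554 and 487 on day 6. No labelled Runx1KO library overlapped the control libraries of its day. Day 1 stood above day 0 by 1.52 ± 0.13, above day 3 by 0.49 ± 0.13 and above day 6 by 0.83 ± 0.13 in the labelled knockout (adjusted p = 1.39e-09, 0.00626 and 7.7e-06).

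**Figure D4:**
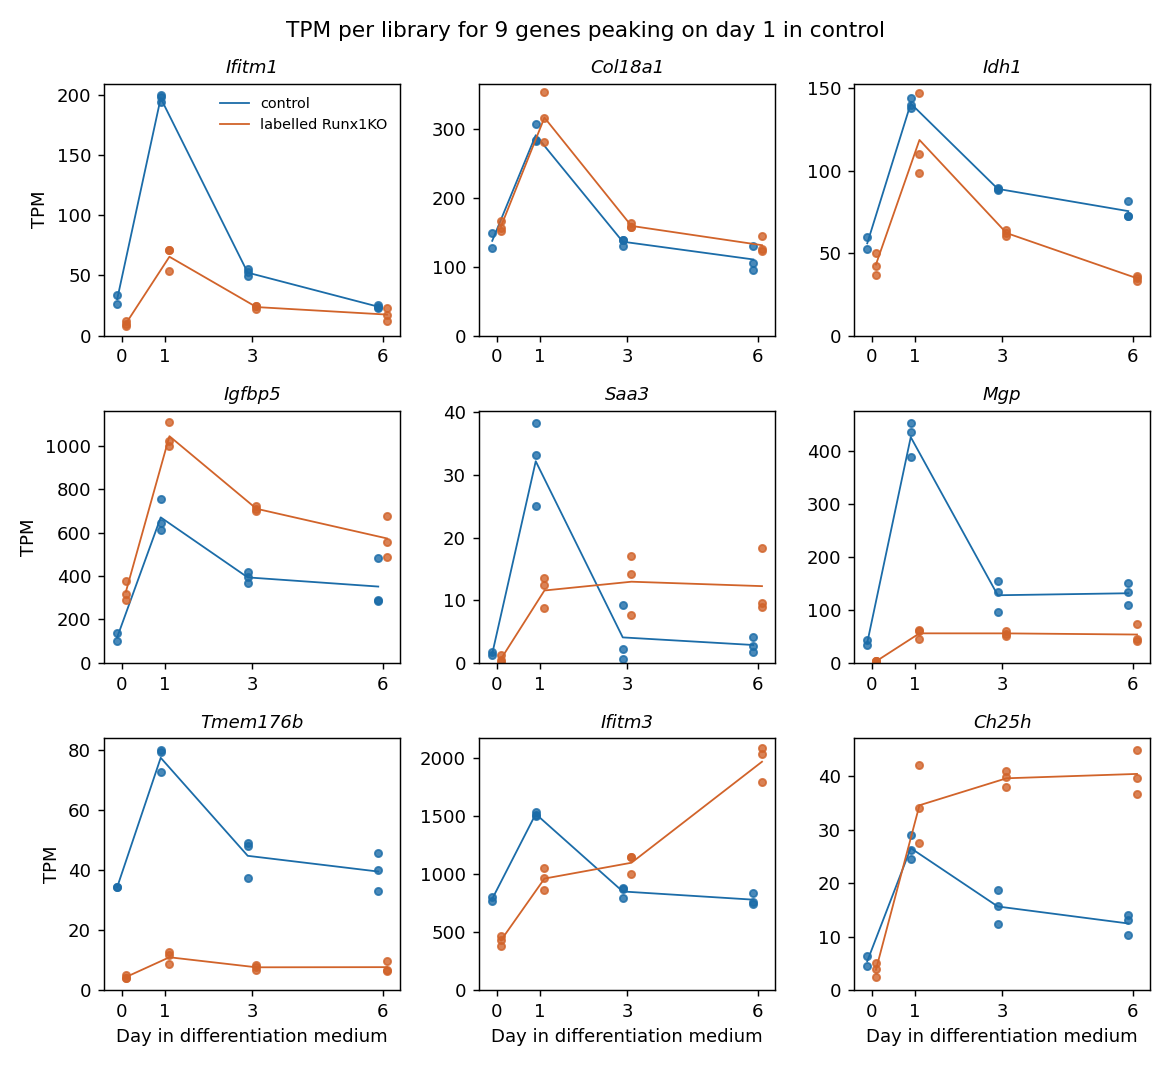
TPM (vertical, starting at 0) by day in differentiation medium (horizontal) for 9 members, with 1 point per library and lines through group means, control in blue and labelled Runx1KO in orange, offset sideways for visibility. Control peaks on day 1 in each panel by the choice of members. In the labelled knockout Ifitm1, Col18a1, Idh1, Igfbp5 and Tmem176b have their highest mean on day 1, Mgp is level from day 1 on, and Saa3, Ifitm3 and Ch25h have theirs on a later day.

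Ace and Stc1 stood lower in the labelled knockout on day 1 and did not peak there. Ace, the angiotensin-converting enzyme, read 0.82 and 0.61 TPM on control day 0, 7.41, 7.37 and 6.08 on day 1, 1.68, 1.18 and 2.13 on day 3 and 1.79, 0.95 and 1.26 on day 6. Those labelled Runx1KO read 0.31, 0.18 and 0.13 on day 0, 0.33, 0.67 and 0.72 on day 1, 0.72, 0.54 and 0.98 on day 3 and 1.78, 1.45 and 1.18 on day 6. Its labelled Runx1KO day 1 libraries lay below every control library of day 1 and above those of their own day 0 (1.45 ± 0.39, adjusted p = 0.00292), but below those of day 6 (-1.29 ± 0.29, adjusted p = 0.000619). Stc1, a calcium-regulating glycoprotein hormone, had means of 0.425, 5.32, 1.97 and 2.42 TPM in control. The means were 0.46, 1.64, 2.13 and 2.5 in the labelled knockout, where day 1 was below day 6 by 0.64 ± 0.21 (adjusted p = 0.0138). Limma on log2(TPM + 0.1) did not call it (-0.58, adjusted p = 0.0661). Pthlh, the parathyroid hormone-related peptide, followed a course of 12.4, 27.3, 15.6 and 11.6 TPM in control and 3.05, 8.48, 8.19 and 3.45 in the labelled knockout.

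Pi16, a secreted peptidase inhibitor used as a fibroblast marker, was listed at 0.1 and 0.06 TPM on control day 0 and 5.56, 5.24 and 4.78 on day 1, then had means of 2.49 and 1.2. It was at 0 in all labelled Runx1KO day 0 libraries and at 0.71, 0.713 and 0.687 TPM on days 1, 3 and 6. Pi16 is itself on the list of 6 fibroblast markers. The summed TPM of the other 5 was 3.86 to 4.25 on control day 0, 30.1 to 31.5 on day 1, 29.9 to 31.9 on day 3 and 34.0 to 38.9 on day 6. In libraries labelled Runx1KO it was 2.07 to 3.93, 17.8 to 19.4, 50.3 to 51.1 and 42.7 to 67 on the same days. From day 1 on, most of that sum was Dcn, Thy1 was at 0 in every library, and the part of these markers in the result was not tested.

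Axon guidance genes gave 3 members, the secreted repellent Sema3a, the transmembrane semaphorin Sema5a and Robo1, the receptor for Slit ligands. Sema5a read 8.62 and 7.6 TPM on control day 0 and 21.4, 20.1 and 18.5 on day 1, with means of 12.4 and 13.2 afterwards. Its labelled Runx1KO means were 7.93, 19.4, 12.5 and 10.6, and day 1 was above the other days by 1.15, 0.56 and 0.85 on the log2 scale (adjusted p = 4.06e-09, 0.00026 and 3.07e-07). Robo1 and Sema3a were lower in the labelled knockout on every day, without overlap: on day 1 Robo1 read 9.57, 9.92 and 10.2 TPM against 19, 18.2 and 16.5 in control, and Sema3a 1.95, 3.38 and 2.87 against 10.7, 11 and 9.69. Of 81 tested genes of that list, 36 were higher and 14 lower on labelled Runx1KO day 1 than on day 0, 15 higher and 21 lower than on day 3, and 24 higher and 40 lower than on day 6.

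Adhesion and cytoskeleton genes kept the peak in the labelled knockout in some cases and not in others. Jup, the junction protein plakoglobin, read 44.7 and 39.5 TPM on control day 0, 94.6, 90.3 and 86.3 on day 1, 44.1, 38.7 and 40.6 on day 3 and 35.3, 35.2 and 38.6 on day 6. The values were 51.1, 46.3 and 45.6 on day 0, 101, 71.5 and 103 on day 1, 61, 55.3 and 51.2 on day 3 and 52.7, 49.4 and 50.6 on day 6 in the labelled knockout. Day 1 was above all other days in both cell groups, by 0.80 ± 0.11, 0.66 ± 0.11 and 0.82 ± 0.11 in the labelled knockout (adjusted p = 1.62e-06, 7.17e-05 and 1.03e-06). Itgb4, the integrin subunit of hemidesmosomes, instead had means of 1.66, 8.74, 3.78 and 3.72 TPM in control. The means were 0.843, 2.08, 2.13 and 2.78 in the labelled knockout, lower there in every library of each day.

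The cytoskeletal members differed from each other. Myl12b, a regulatory light chain of non-muscle myosin, read 261 and 241 TPM on control day 0, 765, 810.1 and 842 on day 1, 475, 476 and 487 on day 3 and 456, 489.6 and 474 on day 6. The labelled knockout read 254, 239 and 199 on day 0, 561, 502 and 590.2 on day 1, 514, 596 and 527 on day 3 and 442, 395 and 406 on day 6. Its day 1 and day 3 libraries overlapped in the labelled knockout (difference -0.06 ± 0.09, adjusted p = 0.666, or 0.06 without day 1 replicate 2). Myl12b shares exon bases and close sequence similarity with its neighbour Myl12a, and how the authors' counting split the pair is not given in the sources used here. Dync1i1, an intermediate chain of the dynein motor, read 9.32, 7.51 and 9.05 TPM on control day 1 against 3.98, 4.91 and 4.8 in the labelled knockout. There it stood above day 0 by 2.26 ± 0.23, day 3 by 0.77 ± 0.20 and day 6 by 2.22 ± 0.22 (adjusted p = 1.7e-08, 0.00566 and 1.55e-08).

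Regulators of small GTPases gave 3 members: Arhgap18, a GTPase-activating protein, Plekhg1, an exchange factor, and Rapgef3 (Epac1), the cyclic AMP-gated exchange factor for Rap. All 3 were called higher on day 1 than on each other day in the labelled knockout. Plekhg1 stood above the other days by 1.61, 0.63 and 1.09 on the log2 scale there (adjusted p = 8.42e-09, 0.00247 and 1.58e-06). The calls against day 3 were less secure for the others: that of Arhgap18 (0.49) was lost without day 1 replicate 2 (0.32), and that of Rapgef3 (0.48) without day 1 replicate 3 (0.32) or day 3 replicate 1 or 3 (0.43 and 0.44). Among 298 tested genes of that list, 107 were higher and 49 lower than on day 0, 62 higher and 33 lower than on day 3, and 93 higher and 82 lower than on day 6, and 17 were higher than on all 3. Of all tested genes, 27.2%, 11.2%, 28.1% and 2.98% were called higher in these comparisons.

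Enzymes of redox balance and detoxification gave several members. Idh1, the cytosolic isocitrate dehydrogenase that supplies NADPH, read 59.5 and 52.3 TPM on control day 0, 144, 139.9 and 138 on day 1, 89.3, 89.1 and 88.3 on day 3 and 72.5, 72.4 and 81.3 on day 6. Libraries of the labelled knockout read 50.3, 42 and 36.9 on day 0, 98.5, 147 and 110.2 on day 1, 60.1, 62.1 and 64.2 on day 3 and 35.9, 33.3 and 35 on day 6. Day 1 was the highest in both, and in the labelled knockout Idh1 was then lower by day 6 than in growth medium in every library. Its log2 fold changes there were 1.30 ± 0.10, 0.85 ± 0.10 and 1.72 ± 0.10 against days 0, 3 and 6 (adjusted p = 1.76e-10, 3.63e-07 and 8.32e-13).

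Glutathione transferases, which couple glutathione to reactive compounds, gave Gstt1, Gstt3 and the microsomal Mgst3. Gstt3 read 5.27, 6.62 and 7.41 TPM on control day 1 and 3.6, 2.82 and 3.29 in the labelled knockout, and Gstt1 read 24.6, 31 and 21.3 and 10.3, 8.56 and 13.6, with no overlap for either gene. Gstt3 fell after day 1 in the labelled knockout (0.93 ± 0.22 above day 3 and 1.04 ± 0.22 above day 6). Gstt1 rose there from day 0 by 1.28 ± 0.20 and differed from day 6 by only 0.05 ± 0.18 (adjusted p = 0.847), a value that turned to -0.15 without day 1 replicate 3. The rise of Gstt3 from day 0 (0.66, adjusted p = 0.0142) was not called without day 0 replicate 3 (0.50) or day 1 replicate 1 (0.54). Mgst3 was the most abundant of the group, with means of 264 TPM on control day 1 and 148 on labelled Runx1KO day 1, where its libraries read 168, 104 and 171. In the whole list of oxidative stress and glutathione genes, 90 were tested: 28 were higher and 36 lower on labelled Runx1KO day 1 than on day 0, 24 higher and 14 lower than on day 3, and 28 higher and 33 lower than on day 6.

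Fmo1, a flavin monooxygenase of xenobiotic metabolism, differed in its start and end. Its control libraries read 59.1 and 47.9 TPM on day 0, 106, 101 and 104 on day 1 and 32.9, 33.4 and 35.9 on day 6, and the labelled knockout 29.7, 28 and 22.4, 84.7, 91.5 and 84.6 and 59.4, 66 and 61.7. It was lower in the labelled knockout on days 0 and 1 and higher on days 3 and 6, with no overlap on any of the 4 days. Fah, the last enzyme of tyrosine breakdown, kept its shape at a lower level. Its control means were 28.7, 80.0, 47.7 and 51.5 TPM, and its labelled Runx1KO means were 19.5, 50.6, 28.6 and 27.2. Day 1 there was above day 3 by 0.75 ± 0.09 and above day 6 by 0.85 ± 0.09 (adjusted p = 1.23e-06 and 4.37e-08).

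Ch25h makes 25-hydroxycholesterol, an oxysterol that restrains sterol synthesis and virus entry. It read 6.32 and 4.52 TPM on control day 0, 29, 24.4 and 26.2 on day 1, 18.8, 15.8 and 12.4 on day 3 and 13.1, 10.3 and 14.1 on day 6. Labelled knockout libraries read 5.03, 3.96 and 2.51 on day 0, 34, 27.6 and 42.1 on day 1, 39.9, 41 and 38 on day 3 and 44.9, 39.6 and 36.7 on day 6. The groups overlapped on days 0 and 1 and parted on days 3 and 6, when the labelled knockout was higher in every library. There Ch25h rose by 3.02 ± 0.19 from day 0 (adjusted p = 1.49e-11) and no later fall was called (-0.27 ± 0.16 against day 3 and -0.26 ± 0.16 against day 6, adjusted p = 0.223 and 0.168). Without day 1 replicate 3, the value against day 6 was -0.43 and was called lower. Car3, the carbonic anhydrase abundant in slow muscle, read 72.2, 74 and 84 TPM on control day 1 and 6.75, 7.24 and 6.36 on labelled Runx1KO day 1. On control day 6 it read 7.08, 19 and 15.7.

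Several members handle ions, lipids or organelles. Slc30a4, a zinc exporter, read 44.9 and 39.3 TPM on control day 0, 75.4, 77.4 and 71.7 on day 1, 43.8, 42.9 and 44.5 on day 3 and 42.9, 36.8 and 53.4 on day 6. The values were 40.8, 35.5 and 34.7 on day 0, 60.0, 93.4 and 70.3 on day 1, 38.4, 35.4 and 36.4 on day 3 and 41.7, 37.8 and 34.1 on day 6 in the labelled knockout. The groups overlapped on every day but day 3, and day 1 was above the other days in the labelled knockout by 0.85, 0.94 and 0.93 on the log2 scale (SE 0.10 each, adjusted p = 1.68e-07, 1.25e-07 and 3.76e-08). Ank, which exports pyrophosphate, read 378, 349 and 349 TPM on control day 1 and 174, 159 and 193 on labelled Runx1KO day 1. There it stood above days 0, 3 and 6 by 0.33, 0.30 and 0.34 on the log2 scale, the value against day 3 being 0.22 and not called without day 1 replicate 3. Apobr, a receptor for triglyceride-rich lipoproteins, had means of 6.84, 11.9, 4.93 and 5.32 TPM in control. The means were 5.42, 10.4, 3.96 and 5.31 in the labelled knockout, nearly the same course. Day 1 was above the other days in the labelled knockout by 0.78, 1.31 and 0.92 (adjusted p = 2.61e-05, 7.43e-08 and 2.88e-06), though Apobr shares exon bases with Cln3 and Il27.

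Further members with high ratios or levels belong to no larger group. Lgals2, a galactose-binding lectin, read 10.6, 11.2 and 7.35 TPM on control day 1 and 11.6, 5.7 and 12.7 on labelled Runx1KO day 1, where replicate 2 was the low one. Its rise from day 0 there (0.85 ± 0.32, adjusted p = 0.0295) was lost without day 0 replicate 2 or 3 (0.87 and 0.70) or day 1 replicate 1 or 3 (0.68 and 0.66), while day 1 stayed above day 6 by 1.29 and was called above day 3 as well. Cmbl, a hydrolase, read 22.8, 25.5 and 18.2 TPM on control day 1 and 23.5, 41.5 and 31.2 on labelled Runx1KO day 1, with a labelled Runx1KO mean of 29 still on day 6. Its rise from day 0 was 2.24 ± 0.21 (adjusted p = 5.95e-09), and its call above day 3 (0.55) was lost without day 1 replicate 2 or 3 (0.39 and 0.56) or day 3 replicate 1 or 2 (0.51 and 0.54). Plac1, a surface protein best known from placenta, read 3.95, 4.48 and 6.97 TPM on control day 1 and 5.03, 3.22 and 4.04 on labelled Runx1KO day 1, and fell after it there (1.30 ± 0.35 above day 3, 1.85 ± 0.37 above day 6). Xrcc5, the larger Ku subunit of DNA end joining, read 121, 118 and 116 TPM on control day 1 and 109.6, 149 and 128 on labelled Runx1KO day 1, where it exceeded the other days by 0.99, 0.58 and 1.30 (adjusted p = 1.58e-10, 1.79e-06 and 8.49e-13).

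The transcription regulators described next did not share a course in the labelled knockout. Pitx3, a homeodomain factor of muscle and dopaminergic neurons, read 1.28 and 2.85 TPM on control day 0, 8.92, 7.96 and 10.3 on day 1, 6.13, 4.95 and 5.51 on day 3 and 3.4, 6.37 and 4.88 on day 6. Its values in the labelled knockout were 4.17, 3.36 and 3.03 on day 0, 19.6, 7.8 and 20.4 on day 1, 19.6, 18.9 and 20.1 on day 3 and 13.6, 13.5 and 14.6 on day 6. On labelled Runx1KO day 1 replicate 2 stood far below the others, and without it Pitx3 was higher on day 1 than on day 6 (0.52, adjusted p = 0.0231). All 3 libraries gave 0.17 ± 0.26 (adjusted p = 0.616). The value was -0.05 without replicate 1 and -0.04 without replicate 3. Maf, a basic leucine zipper factor, read 0.41 and 0.75 TPM on control day 0 and 10.9, 10.2 and 8.73 on day 1, and 0.14, 0.04 and 0.06 and then 2.47, 2.55 and 2.52 in the labelled knockout, a rise of 4.76 ± 0.26 there (adjusted p = 1.12e-12). It was lower in every labelled Runx1KO library than in control on each day and stayed at 2.08 and 2.08 TPM on days 3 and 6.

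Cited1, a coactivator without DNA binding of its own, read 3.97 and 5.64 TPM on control day 0, 9.7, 9.98 and 8.87 on day 1, 1.44, 1.82 and 1.18 on day 3 and 0.42, 0.27 and 0.98 on day 6. The values were 0.71, 1.76 and 2.46 on day 0, 1.71, 1.02 and 1.79 on day 1, 1.48, 0.6 and 0.48 on day 3 and 0.51, 0.35 and 0.58 on day 6 in the labelled knockout. The labelled Runx1KO libraries showed no day 1 rise (-0.21 ± 0.41, adjusted p = 0.697), with values of 0.20 without day 0 replicate 3 and 0.06 without day 1 replicate 2. Dtx4, a Deltex ubiquitin ligase tied to Notch signalling, read 6.42 and 4.53 TPM on control day 0 and 38.2, 32.2 and 33.7 on day 1, and 9.58, 9.06 and 7.14 and 43.5, 39.4 and 46.6 in the labelled knockout, where it was higher on day 1 than in any control library. Its labelled Runx1KO day 1 level exceeded the other days by 2.40 ± 0.10, 0.56 ± 0.09 and 1.05 ± 0.10 (adjusted p = 1.95e-14, 8.13e-05 and 2.77e-09).

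St8sia2 and Fbxo2 had little transcript in the labelled knockout on any day. St8sia2, which builds polysialic acid on the adhesion molecule Ncam1, read 5.2 and 6.5 TPM on control day 0, 10.3, 10.1 and 10.6 on day 1, 6.44, 7.2 and 6.2 on day 3 and 4.7, 4.23 and 6.04 on day 6. In the labelled knockout it was at 0.12, 0.18 and 0.13 on day 0 and 0.08, 0.12 and 0.14 on day 1, with a difference of -0.47 ± 0.40 (adjusted p = 0.341), and no library of day 3 or day 6 exceeded 0.13 TPM. Fbxo2, which feeds glycoproteins to a ubiquitin ligase, read 2.46 and 3.12 TPM on control day 0 and 5.97, 6.4 and 4.32 on day 1, against 1.24, 0.97 and 0.98 and 0.81, 0.84 and 0.84. Its day 1 libraries lay below those of day 0 in the labelled knockout, a difference of -0.51 ± 0.38 that was not called (adjusted p = 0.275). Day 1 was called above day 3 (1.31 ± 0.47, adjusted p = 0.0414). That call was lost in the Runx1KO groups alone (1.31) and without any single library of day 1 replicates 1, 2 and 3 or day 3 replicates 1 and 3 (0.84 to 1.36).

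The remaining 18 members with ordinary symbols were Nhlrc4, Tmem173, Anxa9, Enpp5, Mtmr11, Yipf2, Efhd1, Nxf3, Eva1b, Cables1, Mov10, Amdhd2, Mvb12b, Snn, Gxylt2, Oplah, Dact2 and Tns2. Their control ratios ran from 1.5 to 1.96 and their control day 1 means from 5.61 to 103.6 TPM, and their labelled Runx1KO ratios from 0.925 to 1.65. In the labelled knockout 16 of them were called higher on day 1 than on day 0, 11 higher than on day 3 and 14 higher than on day 6, none was called lower, and 8 were higher than on all 3. Of all tested genes, 27.2%, 11.2%, 28.1% and 2.98% were called higher in these comparisons. Tmem173 (STING), the adaptor that signals from cytosolic DNA to interferon, had means of 19.6, 34.8, 19.7 and 16.6 TPM in control. The means were 16, 26.8, 22.4 and 20.5 in the labelled knockout. Mov10, an RNA helicase that restrains retroelements, stood at 21.9, 36.6, 23.1 and 20.2 TPM and at 21.8, 32, 28.1 and 25.9. For both genes the labelled Runx1KO libraries lay above the control libraries on days 3 and 6, and on days 0 and 1 they lay below them for Tmem173 and overlapped them for Mov10.

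Tns2, a tensin that links integrins to actin, read 105, 104 and 101 TPM on control day 1 and 94.5, 76.8 and 108 on labelled Runx1KO day 1, so the groups overlapped. Nxf3, a relative of the mRNA export receptor, read 21.4, 20.8 and 21 TPM and 22.9, 27 and 22.5 there, higher in the labelled knockout without overlap. Gxylt2, which adds xylose to the glucose on Notch, read 11.2, 8.04 and 10.5 TPM and 8.43, 6.02 and 7.09, and Cables1, which links cyclin-dependent kinases to other kinases, read 9.38, 8.09 and 9.03 TPM and 7.09, 6.65 and 7.56. Oplah, the enzyme that returns oxoproline from glutathione turnover to glutamate, had means of 13.1 TPM on day 1 and 13.1 on day 6 in the labelled knockout, where control had 14.2 and 9.37. Dact2, an inhibitor of Tgf-beta receptor signalling, read 4.81, 4.47 and 4.6 TPM on labelled Runx1KO day 0 and 5.31, 4.53 and 6.27 on day 1, which overlap, and 3.89 and 3.83 and 6.28, 6.0 and 5.28 in control, which do not.

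Levels in the labelled knockout were also set beside control on each day. On day 1 all labelled Runx1KO libraries lay below all control libraries for 42 members (25.3% of the 9752 genes did so). They lay above for 5 (21.2%), namely BC039192, Sigirr, Igfbp5, Nxf3 and Dtx4. Without labelled Runx1KO day 1 replicate 2 these counts were 48 and 10. The shares of the 9752 genes were not computed without that library, and leaving out a library can only keep or raise such counts. On day 0 the counts were 37 below and 14 above (34.0% and 19.9% of the genes). On day 3 they were 28 and 22 (42.5% and 21.3%), and on day 6 they were 32 and 19 (34.8% and 15.5%). The median log2 ratio of labelled Runx1KO to control means, on TPM plus 1, was -0.25 on day 0, -0.56 on day 1, 0.00 on day 3 and -0.18 on day 6, and -0.47 on day 1 without that library. Over the 9752 genes these medians were -0.05, 0.00, -0.09 and -0.12. Since the members were picked for control values high on day 1 and lower on the other days, such differences are in part fixed by the choice, and nothing is read from them or from their order over the days.

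On all 4 days, 20 members were lower in every labelled Runx1KO library than in any control library (11.8% of the 9752 genes were), a count that includes day 1 and from which nothing is read: Ifitm1, Mgp, Il2rg, Itgb4, Tmem176a, Fbxo2, Pthlh, Opn3, Tmem176b, Enpp5, Mtmr11, Car3, Eva1b, Robo1, St8sia2, Fah, Ank, Sema3a, Maf and Mgst3. Sigirr, Igfbp5 and Nxf3 were higher on all 4 days (3.66% of the members, near the 3.57% of the genes). Opn3, an opsin expressed outside the eye, combined a lower level with a kept peak. It read 30.8, 32.7 and 30.6 TPM on control day 1 and 11.9, 13.6 and 15.3 on labelled Runx1KO day 1, where it exceeded day 0 by 1.21 ± 0.12, day 3 by 0.61 ± 0.12 and day 6 by 0.97 ± 0.12 (adjusted p = 1.62e-08, 0.00034 and 2.68e-07).

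Among the members, 15 carry gene-model, cDNA-clone or small RNA names (18.3%, against 4.72% of the 9752 genes), and some of these rest on few reads. Snora17, a small nucleolar RNA that poly(A) selection would not be meant to capture, was at 0, 0 and 45.5 TPM in the 3 control day 1 libraries, the last from 1 estimated count, and at 0 in all the others. The clone AK204461 read 130.1, 92.4 and 0 TPM on control day 1 and 50.7, 130.1 and 0 on labelled Runx1KO day 3, from estimated counts of 3, 2 and 0 and of 1, 3 and 0. AK035085 and BC039192 were steadier: AK035085 read 20.1 and 18.4 TPM on control day 0 and 96.5, 95.8 and 99.5 on day 1, and BC039192 104 and 118 and 613, 576 and 762. The other 11 were the models C430049B03Rik, Gm38667 and KY467855 and the clones AK216043, AK197973, AK203628, AK202516, AK204506, AK219587, AK191411 and AK218399. Of the 15, 4 had all control day 1 libraries above every other control library.

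Of the 41 gene lists, 16 gave no member, which at the 0.841% share of all genes is near what lists of their size (24 to 221 genes of at least 5 TPM on control day 1, for 0.202 to 1.86 members) would hold. Nothing is read from these zeros. They included the lists of sarcomere genes (99 tested), cholesterol and fatty acid synthesis (58), cell cycle and histone genes (257), heat shock genes (100), ion channels (161), G protein coupled receptors (197), zinc finger genes (464), lysosome genes (132), Wnt pathway genes (69) and chromatin regulators (231). On labelled Runx1KO day 1, 60 sarcomere genes were already higher than on day 0 and 76 were still lower than on day 3, while 177 cell cycle genes were lower than on day 0 and 18 higher. Of the cell cycle genes, 89 were lower on that day than on day 3 and 13 higher, and 24 were lower than on day 6 and 183 higher. Of 71 tested myogenic regulators and fusion genes, Pitx3 was the only member of the set, and 37 of the list were higher and 6 lower on labelled Runx1KO day 1 than on day 0.

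In the genome the members were spread over 18 chromosomes, with at most 8 on any of them, and 69 of the 82 could be placed by symbol in the GENCODE annotation of GRCm38, 67 of them as protein coding. Within 100 kb there were 5 neighbouring pairs, of which C430049B03Rik and Plac1 lie 12.8 kb apart on chromosome X. Ifitm1 (chr7:140967221-140969825, plus strand) lies 39.8 kb from Ifitm3 (chr7:141009586-141010770, minus strand), which lies 80.4 kb from Sigirr (chr7:141091175-141100572). Gstt3 (chr10:75774115-75781414) and Gstt1 (chr10:75783813-75798584), both on the minus strand, are 2.40 kb apart, and Tmem176b (chr6:48833818-48841496, minus strand) overlaps Tmem176a (chr6:48840919-48847071, plus strand). Members were shorter than tested genes at large, with a median longest transcript of 2299 against 3365 bases, and had a median GC content of 51.8% against 49.9%. Exon bases are shared with another gene for 30 of the 69 placed members, and without a stated use of strand their values are uncertain to that extent. The 13 members that were not placed could not be checked for this.

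Promoters from RefSeq (GRCm38.p6, from 250 bases before to 50 after a start) matched 53 members by symbol, with 65 windows. The Runx core, TGTGGT or TGCGGT read on both strands, was in 26.2% of these windows, against 22.4% of all 32851 windows and 20.6% of the 9701 windows of genes that reached 5 TPM on control day 1. The wider letters TGNGGT, which include the core, were in 61.5%, against 45.8% and 41.7%, so most of those matches were not the core. The E-box CAGCTG was in 29.2%, against 16.3% and 15%, while any CANNTG, which includes CAGCTG, was in 60.0%, against 72.3% and 61.7%. For Tead (GGAATG) the shares were 20.0%, 14.7% and 11.6%, for AP-1 (TGANTCA) 6.15%, 7.81% and 4.84%, and for Ets (CCGGAAGT) 1.54%, 3.89% and 8.96%. The windows of members had a median GC content of 59%, against 52.7% and 61.7%, and a ratio of observed to expected CpG of 0.45, against 0.38 and 0.78. These matches are a description of letters, with no test, and do not show binding.

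The 250 bases before the start are printed for members with a Runx core match and no annotated exon in them. The 3 with the highest and the 2 with the lowest labelled Runx1KO ratio are shown. The first 3 met the member rule in the labelled knockout and the last 2 did not, though day 1 was the highest labelled Runx1KO mean for each of them. Ratios of day 1 to the highest other day in control and in the labelled knockout were 1.63 and 1.73 for Dnaaf3, 1.68 and 1.64 for Plekhg1, 1.53 and 1.60 for Gxylt2, 1.53 and 1.32 for Sema3a, and 1.55 and 1.02 for Milr1, a receptor of mast cells. Capitals mark the Runx core or its reverse complement, and each is written 5′ to 3′ on the strand of the gene.
Dnaaf3 (chr7:4532466-4532715, minus strand): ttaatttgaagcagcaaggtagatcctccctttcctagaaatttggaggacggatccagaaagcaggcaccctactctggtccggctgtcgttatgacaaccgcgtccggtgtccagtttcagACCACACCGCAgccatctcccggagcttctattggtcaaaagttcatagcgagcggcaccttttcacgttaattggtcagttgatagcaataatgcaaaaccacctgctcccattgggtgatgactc
Plekhg1 (chr10:3872417-3872666, plus strand): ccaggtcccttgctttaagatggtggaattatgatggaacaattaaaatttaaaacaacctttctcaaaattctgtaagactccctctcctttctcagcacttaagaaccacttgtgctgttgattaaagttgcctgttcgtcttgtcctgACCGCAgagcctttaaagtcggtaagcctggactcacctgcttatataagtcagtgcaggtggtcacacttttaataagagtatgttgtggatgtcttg
Gxylt2 (chr6:100704484-100704733, plus strand): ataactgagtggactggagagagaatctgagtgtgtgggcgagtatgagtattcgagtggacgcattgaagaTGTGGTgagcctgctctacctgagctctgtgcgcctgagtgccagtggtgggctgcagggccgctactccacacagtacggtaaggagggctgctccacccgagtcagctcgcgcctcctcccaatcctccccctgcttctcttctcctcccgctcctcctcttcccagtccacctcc
Sema3a (chr5:13396534-13396783, plus strand): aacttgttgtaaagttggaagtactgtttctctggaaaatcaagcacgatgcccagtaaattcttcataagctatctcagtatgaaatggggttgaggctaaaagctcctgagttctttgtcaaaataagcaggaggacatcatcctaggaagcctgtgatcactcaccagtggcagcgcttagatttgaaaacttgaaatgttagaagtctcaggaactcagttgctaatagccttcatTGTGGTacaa
Milr1 (chr11:106750976-106751225, plus strand): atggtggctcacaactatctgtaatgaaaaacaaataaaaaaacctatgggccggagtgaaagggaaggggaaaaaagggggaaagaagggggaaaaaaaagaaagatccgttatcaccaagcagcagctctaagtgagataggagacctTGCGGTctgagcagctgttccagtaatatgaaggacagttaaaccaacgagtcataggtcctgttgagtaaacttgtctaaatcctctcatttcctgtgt

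The windows printed hold the Runx core by choice. Dnaaf3, an assembly factor of ciliary dynein, has 2 overlapping matches in 1 run of capitals, and read 5.85, 4.92 and 5.32 TPM on control day 1 and 5.52, 4.8 and 5.13 on labelled Runx1KO day 1, above the other days there by 1.93, 0.72 and 1.41 (adjusted p = 1.31e-08, 0.00298 and 5.86e-07). Its exons overlap those of Tnni3, the cardiac troponin I gene. Milr1 had means of 9.78, 15.2, 6.13 and 6.81 TPM in control. The means were 11.2, 11.5, 7.05 and 7.04 in the labelled knockout. There day 1 libraries overlapped those of day 0 and lay above all those of days 3 and 6.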

How the data were processed

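RNA-seq was deposited for 23 libraries. The submitters' processing notes name Bowtie2, RSEM and the mm10 build, without versions or settings. The authors deposited estimated counts per gene symbol, as whole numbers, and TPM made by the authors from the same genes. Any use of strand is not given in the sources used here. The 82 members were chosen by mean TPM in the control libraries, and the members and lists were chosen with earlier results of these data known.

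Estimated counts (rounded, which changed none) were filtered with filterByExpr (minimum count 10, minimum total 15), scaled by TMM and fitted with edgeR 4.0.16 in R 4.3.3 as 8 group means over 23 libraries. Day 1 was contrasted with days 0, 3 and 6 within labelled Runx1KO, with Benjamini-Hochberg adjustment over 14187 genes and a threshold of 0.05, two-sided. Log2 fold changes carry SEs derived from the F statistic. The script was tested on simulated data. Denominators under 0.1 TPM in ratios of day 1 to the highest other day were raised to 0.1 TPM. Depth was 22197606 to 23684077 counts per library.

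Genes were named by rule, without model or clone names: the 10 highest control ratios, the 10 highest control day 1 levels, the 6 highest and 6 lowest by their smallest labelled Runx1KO change, the 3 on either side of the 1.5 limit, and Runx1. Others were chosen after their values were seen. TGTGGT or TGCGGT as the Runx core was added to TGNGGT after the data were seen. The labels give replicate numbers 1 to 3 in each group (1 and 2 in control day 0), which served for the replicate block. Alternatives were RLE or library-size scaling, all counted genes, genes with a mean count of 50, DESeq2 1.42.0, limma 3.58.1 on log2(TPM + 1) and log2(TPM + 0.1), Runx1KO groups alone, the block, stricter calls, other rule limits, and omission of each library, with the members chosen again where a control library was left out.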

Additional observations from a re-analysis of the deposited data

Results flagged for a closer look

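Fbxo2 was marked because the cell groups moved in opposite directions from growth medium to day 1. Its mean went from 2.79 to 5.56 TPM in control (2 and 3 libraries) and went from 1.06 to 0.83 TPM in the labelled Runx1KO libraries (3 and 3), a difference of -0.23 TPM, with every library on its side. The difference between the groups was not tested, the control direction is fixed by the choice of members, and the labelled Runx1KO levels are near 1 TPM.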

How the results depend on the processing

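Counts of members called higher on labelled Runx1KO day 1 stayed within 1.5 times the reported ones under RLE scaling, library size only, no filter, a mean count of 50, DESeq2, both limma fits, the Runx1KO groups alone and the replicate block. With an adjusted p under 0.01, 20 members were higher than on all 3 other days, and with an absolute log2 fold change of at least 1 the counts were 37 against day 0, 6 against day 3, 19 against day 6 and 1 against all 3. A ratio of at least 2 in the rule gave 24 members, of which 5 were called in all 3 contrasts and 2 met the rule in the labelled knockout. A limit 0.25 below the reported ratio of 1.5 gave 286 and 94, and a minimum of 1 TPM gave 146 and 32. The Runx core letters in place of TGNGGT were in 26.2% of member promoter windows. Fewer genes pass the stricter limits and more the looser ones by construction. Shares of all tested genes were not computed under these alternatives or with a library left out. The member counts in this section therefore have no background beside them. Leaving out each library in turn gave 57 to 69 members higher than on day 0, 32 to 47 than on day 3, 46 to 55 than on day 6 and 23 to 38 than on all 3, with 76 to 86 members chosen and 16 to 21 meeting the rule in the labelled knockout.

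With the replicate block the counts were 61, 43, 49 and 31. Same-numbered libraries did not deviate together (correlations of -0.06 to 0.03), so the numbers share only a name.

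For 43 genes and 3 contrasts, 4013 of 4110 alternative values kept their direction and call, 43 lost a call, 31 gained one and 23 changed sign, none of them called. Against day 6, Mgp gave -0.023 with RLE, -0.024 with DESeq2, -0.0066 with no filter, -0.057 with a mean count of 50 and -0.0061 in the Runx1KO groups alone, and Gstt1 gave -0.017 with a mean count of 50. Against day 3, Myl12b gave 0.014 in both limma fits. The other sign changes came from leaving out 1 library. Against day 6 the values then ran from -0.15 to 0.29 for Mgp (lowest without day 6 replicate 2), -0.15 to 0.23 for Gstt1 (day 1 replicate 3), -0.092 to 0.24 for Cmbl (day 1 replicate 2), -0.051 to 0.52 for Pitx3 (day 1 replicate 1) and -0.32 to 0.25 for Saa3 (highest without day 6 replicate 1). Against day 3 they ran from -0.12 to 0.060 for Myl12b and -0.57 to 0.017 for Pitx3 (both highest without day 1 replicate 2), -0.53 to 0.019 for Saa3 (day 3 replicate 3) and -0.14 to 0.55 for St8sia2 (lowest without day 3 replicate 1). Against day 0, Cited1 ran from -0.57 to 0.20 (highest without day 0 replicate 3). The cause was not tested. Depth was alike in all libraries, and members under about 1 TPM in the labelled knockout rest on few reads.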

Other observations

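Several genes of cholesterol and fatty acid synthesis had a day 1 peak in the labelled Runx1KO libraries. Of 49 genes on that list with at least 5 TPM on control day 1, 0 met the 1.5-fold rule in control, where the 0.841% share of all genes would give 0.412, and day 1 was the highest control day for 24 of them, with a median ratio of day 1 to the highest other day of 1.00. Of 49 with at least 5 TPM on labelled Runx1KO day 1, 8 met it there (1.12% of all such genes did), among them Tm7sf2, Hmgcs1, Idi1, Scd1, Scd2, Lss and Acat2, with a median ratio of 1.24 over the 49. In control, Tm7sf2 fell just under the 1.5-fold limit, at a ratio of 1.46, with means of 10.29, 29.15, 19.97 and 15.67 TPM on days 0, 1, 3 and 6. Without labelled Runx1KO day 1 replicate 2, 6 genes met the rule there, namely Tm7sf2, Hmgcs1, Scd1, Scd2, Lss and Aacs. The share of all genes was not computed without that library. Hmgcs1, which makes the precursor of sterols and isoprenoids, read 135.2, 134.7 and 129.4 TPM on control day 1 and 161.4, 219 and 153.9 on labelled Runx1KO day 1, replicate 2 being the high one. By edgeR, 23 of the 58 tested list genes were higher on labelled Runx1KO day 1 than on each of days 0, 3 and 6, where 2.98% of all tested genes were. The difference between the cell groups was not tested.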
